A study of Mus musculus with 6 samples.

Results

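The genes described here are 43 members of the signalling pathways of bone morphogenetic proteins (BMPs), activins and transforming growth factor beta (TGF-beta). They comprise 14 ligands, 11 receptors, 6 antagonists, 8 SMAD proteins and 4 ID target genes, chosen by gene name among the 35974 gene names of the count table. Their 129 transcripts, of 114412 in the table, were summed by gene name. Of the 43 genes, 41 passed the filter on low counts, and none of them was called at the thresholds of the study. Calls were rare among all genes too, at 0.0154% by edgeR and 0.0539% by DESeq2. The 95% intervals of all receptors, SMADs and ID genes lay within a 1.5-fold change, as did those of 61.2% of all genes. The counts of several genes were divided differently among their transcripts in different pools. DESeq2 called 3 member transcripts (1.85% of all transcripts called), 2 minor ones of Amhr2 higher in PB and a minor one of Chrd lower in PB. The edgeR test called no member transcript (0.0332% of all called), and the Chrd transcript did not pass its filter. In simulated data the edgeR test made no call on transcripts with known changes, and the DESeq2 test was not run on simulated transcripts.

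Ligands of this superfamily bind pairs of serine/threonine kinase receptors at the cell surface. The receptors phosphorylate SMAD proteins, which enter the nucleus with the shared partner SMAD4 and act on target genes such as the ID genes. In the mouse, BMP signals are needed for the formation of primordial germ cells and promote the entry of ovarian germ cells into meiosis. Activins and inhibins act in the ovarian somatic cells, and anti-Mullerian hormone (AMH) acts through AMHR2, a receptor of granulosa and Sertoli cells.

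RNA was sequenced from the ovaries of C57BL/6J embryos at E15.5, 3 pools per group. The PB pools came from pregnant mice given panobinostat (PB), an inhibitor of histone deacetylases, by gavage from E6.5 to E15.5. The control pools came from mice given DMSO and water on the same days. The dose was 5 mg/kg, per day in the sample labels and on alternate days in the study's methods. A pool held 4 ovaries according to the labels and more according to the RNA-seq methods. Whole ovaries were used, so that fewer cells of a type and less RNA per cell cannot be told apart.

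The pools held 97165644 to 125985399 counts, of which 232080 to 282317 fell on the 43 genes. Pregranulosa markers summed to 1780 to 1991 CPM (counts scaled to the library size) over the 6 pools, and adrenal and Y-linked markers to 2.63 CPM or less. Germ cell markers summed to 730 CPM in control 2 and 645 CPM in PB 2, against 964 to 1035 CPM in the other 4 pools. Surface epithelium markers summed to 264 to 343 CPM in control and 346 to 427 CPM in PB, without overlap, and 1 of the 6 (Lrrn4) had an unadjusted p under 0.05. Lrrn4 had 31.2 CPM in control 2 and 52.0 CPM in PB 2, the pools with the nearest surface epithelium sums. Its own nearest pools were control 1 at 40.5 CPM and PB 1 at 47.0 CPM. Without this gene the surface epithelium sums overlapped. The sums of endothelial markers were 342 to 372 CPM in control and 321 to 343 CPM in PB. Sertoli cell markers summed to 62.6 to 78.2 CPM in control and 60.6 to 62.0 CPM in PB, also without overlap, and 1 of the 8 (Dmrt1, lower in PB) had an unadjusted p under 0.05. Dmrt1 had 10.1 CPM in control 2 and 9.41 CPM in PB 2, the pools with the nearest Sertoli sums. Its own groups overlapped, since PB 1 and PB 3 had 10.3 and 10.5 CPM. Without this gene the Sertoli sums overlapped. Of the 7 interstitial and perivascular markers, Acta2 had an unadjusted p under 0.05 and was higher in PB. Of the 10 germ cell markers, 4 (Dppa3, Pou5f1, Kit and Dnd1) had an unadjusted p under 0.05 and were lower in PB. Control 1 and control 3 were the highest pools of Dppa3, Pou5f1, Kit, Rec8 and Dnd1, and also of Dmrt1 from the Sertoli list. This did not hold for Ddx4, Dazl, Sycp3, Stra8 and Mael. The cell type behind the Dmrt1 value was not tested. Red blood cell markers summed to 15030 to 31926 CPM in control and 18338 to 20100 CPM in PB, and 1 of the 7 (Hba-a2, lower in PB without overlap) had an unadjusted p under 0.05. The part of these cell types in the results below was not tested.

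Promoter sequences are shown for 4 genes, to let the letters near the start be read beside the values of a receptor (Amhr2), an inhibitory SMAD (Smad6) and 2 ID targets. They come from RefSeq (GRCm38.p6, the assembly of mm10), whose promoter table held 30 of the 43 genes in 35 windows of 300 bases. Capitals mark a motif that was searched on both strands. The motifs were CAAGGTCA, the letters bound by nuclear receptors of the NR5A1 type, which act in the gonad, GTCTAGAC, a palindrome bound by SMAD3 and SMAD4, and GGCGCC, a GC-rich word bound by the SMADs of BMP signalling. None of the 3 words contains another.
Amhr2, chr15:102445117-102445366, plus strand: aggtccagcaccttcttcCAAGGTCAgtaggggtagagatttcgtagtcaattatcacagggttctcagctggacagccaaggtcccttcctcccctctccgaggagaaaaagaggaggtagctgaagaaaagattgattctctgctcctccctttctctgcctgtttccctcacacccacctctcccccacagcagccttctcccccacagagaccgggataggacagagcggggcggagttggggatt
Smad6, chr9:64022030-64022103, minus strand: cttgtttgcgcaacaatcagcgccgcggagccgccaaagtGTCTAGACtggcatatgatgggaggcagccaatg
Id2, chr12:25096293-25096342, minus strand: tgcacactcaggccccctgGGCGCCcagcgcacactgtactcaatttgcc
Id4, chr13:48260943-48260998, plus strand: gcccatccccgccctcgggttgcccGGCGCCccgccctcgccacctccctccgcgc

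The word CAAGGTCA was found in Amhr2 alone among the members' windows, starting 232 bases before the start, and in 1.56% of all 32851 windows of this length. GTCTAGAC was found in Smad6 alone, starting 4 bases before the start, and in 0.213% of all windows. GGCGCC was found in the windows of 10 members (Acvr1b, Bmpr1a, Bmpr2, Chrd, Grem1, Id2, Id4, Smad5, Smad9 and Tgfbr1) and in 11.9% of all windows. A match describes the letters and is no evidence of binding.

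To place the members against each other, levels were divided by transcript length and expressed as TPM (each transcript's part of a library in which all levels add up to 1000000). Among the ligands, Inha (the inhibin alpha subunit) had 32.3 ± 2.66 TPM (SD, n = 3) in control and Inhbb (the beta B subunit of activin and inhibin) had 28.4 ± 2.47 TPM. The ranges of the control pools overlapped for this pair. Tgfb3 followed at 25.1 ± 0.877 TPM, and then Tgfb2, Tgfb1 and Bmp2 at 19.9, 19.5 and 19.5 TPM with overlapping ranges. These 6 genes held the upper part of the ligand order, above Bmp6 (7.83 TPM), Bmp7 (6.65 TPM) and Bmp4 (3.13 TPM). Bmp5 (2.04 TPM), Inhba, the beta A subunit (1.20 TPM), and Bmp3 (0.360 TPM) came next, and Bmp15 and Nodal closed the list at 0.146 and 0.134 TPM with overlapping ranges.

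Amhr2 stood first of the receptors at 145 ± 8.26 TPM in control, apart from all others. Bmpr1a and Tgfbr1, the type I receptors for BMPs and for TGF-beta, followed at 55.3 ± 4.69 and 42.1 ± 4.67 TPM without overlap. The ranges of Bmpr2 (19.1 TPM) and Tgfbr2 (15.46 TPM), both type II receptors, overlapped. Acvr1, Acvr1b, Tgfbr3, Acvr2a and Acvr2b had 12.7, 12.5, 11.3, 9.56 and 7.58 TPM, and each overlapped with its neighbour in this order. Bmpr1b was the lowest receptor, at 4.50 ± 0.454 TPM.

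Of the SMADs, Smad5, which carries BMP signals, and the shared partner Smad4 had 59.3 ± 4.52 and 57.5 ± 4.65 TPM in control and overlapped. Smad3, which carries activin and TGF-beta signals, had 42.99 ± 4.58 TPM. Smad7, Smad2, Smad1 and Smad6 lay between 15.6 and 17.7 TPM with overlapping neighbours, and Smad9 had 1.80 TPM. The ID genes, which encode inhibitors of basic helix-loop-helix factors, were led by Id3 at 182 ± 9.68 TPM. Id1 and Id2 overlapped at 84.9 and 80.2 TPM, and Id4 had 12.4 TPM.

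Of the 6 antagonists among the members, all were low apart from Bambi, which encodes a decoy receptor without a kinase. Its level per length was 25.7 ± 18.2 TPM in control. This spread came from the length of the transcript to which its counts were assigned, and its CPM values were steady, as described below. Chrd had 2.51 TPM, Lefty1 1.08 TPM and Nog 1.02 TPM, and these last 2 overlapped. Lefty2 and Grem1 had 0.0544 and 0.0297 TPM. Grem1 was at 0 counts in control 2 and PB 1, where up to 3 counts per pool are allowed by a count of 0, and neither gene passed the filter on low counts.

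**Figure D1:**
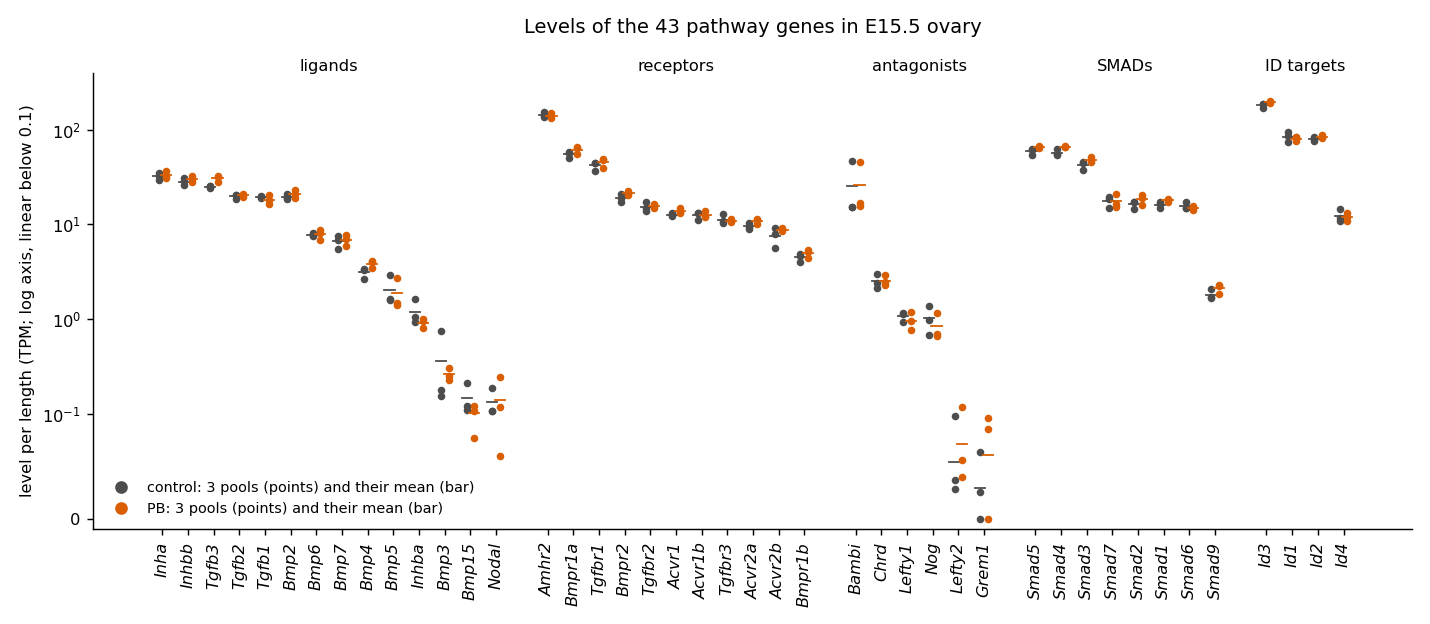
Level per length (TPM, on a log axis that is linear below 0.1) of the 43 genes in the 3 control and 3 PB pools, ordered by the control mean within each role. Points are pools and short bars are group means. Id3 and Amhr2 have the highest control means, 182 and 145 TPM, and Grem1 the lowest, 0.0297 TPM. Groups are compared on CPM, since TPM also moves with the lengths of all other transcripts.

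To compare PB with control, the gene sums were tested with the quasi-likelihood F-test of edgeR over 19435 genes. Calls required a change of 2-fold or more together with an adjusted p (Benjamini-Hochberg FDR) of 0.05 or less. Of the 41 member genes tested, 0 were called by edgeR and 0 by DESeq2, against 0.0154% and 0.0539% of all genes. At an unadjusted p under 0.05, edgeR gave 4 members (4.46% of all genes) and DESeq2 also gave 4 (3.65% of all genes). Tgfb3 was higher in PB (2.03% of all genes were higher at this p), and Amhr2, Smad6 and Id1 were lower (2.43% of all genes), each with an edgeR FDR of 0.888. Without control 1, edgeR gave 0 members at an unadjusted p under 0.05, and without PB 2 it gave 6. The shares of all genes above belong to the main fit and are not given here for these fits. These counts therefore cannot be read as a result about the members.

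Of the 41 genes, 15 had a fitted change above 0 and 26 below 0, and 49.3% of all genes were below 0. The median log2 fold change was -0.06 over the members and 0.0020 over all genes. The groups did not overlap for 4 members, against 10.7% of all genes. PB lay above control for Smad4 and Smad5 (5.1% of all genes) and below control for Amhr2 and Id1 (5.61% of all genes). The 95% interval of the fold change lay within a 2-fold change for 36 members (76.5% of all genes) and within 1.5-fold for 33 (61.2% of all genes). All 11 receptors, all 8 SMADs and all 4 ID genes were among the 33. By role, the fitted change was below 0 for 12 of 14 ligands, 4 of 11 receptors, 4 of 4 tested antagonists, 2 of 8 SMADs and 4 of 4 ID genes.

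**Figure D2:**
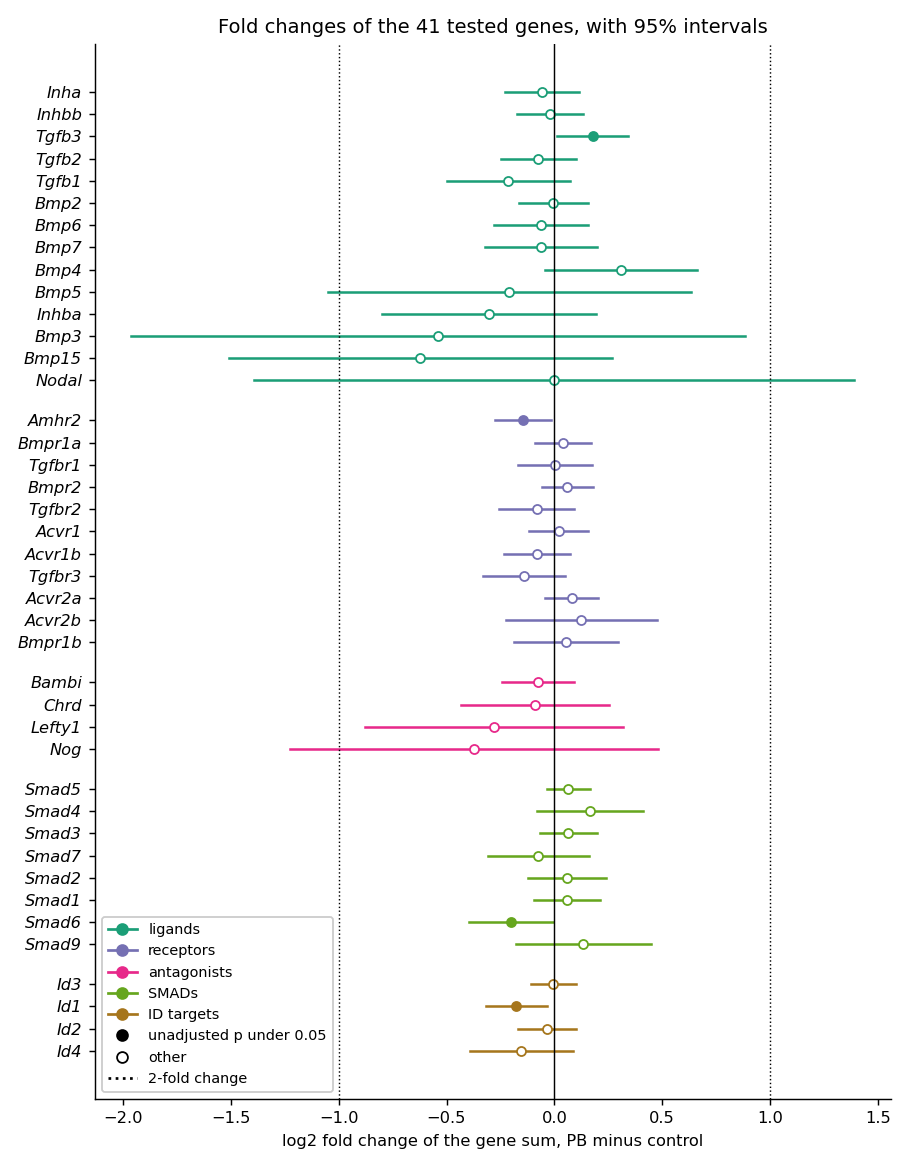
Log2 fold change of the gene sum (PB minus control) with its 95% interval from edgeR for the 41 tested genes, by role and, within a role, by level. Filled points mark the 4 genes with an unadjusted p under 0.05, and dotted lines mark a 2-fold change. The intervals of the receptors, SMADs and ID genes are short, and those of 5 ligands or antagonists of low level (Bmp5, Bmp3, Bmp15, Nodal and Nog) cross a dotted line.

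Tgfb3, a TGF-beta ligand, was the ligand with an unadjusted p under 0.05. Its gene sum was 55.3, 63.3 and 56.7 CPM in control 1, 2 and 3 and 67.0, 62.9 and 68.2 CPM in PB 1, 2 and 3. Control 2 lay just above PB 2, so the groups overlapped by this pair. Its fitted log2 change was 0.18 ± 0.07 (SE), with an unadjusted p from edgeR of 0.0387 and an adjusted p of 0.888. Without control 2 and PB 2 it was 0.27, with an FDR of 0.180, and the FDR over all alternatives ran from 0.180 to 1.00.

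Bmp4, a ligand needed for the formation of primordial germ cells, had the highest fitted change of the ligands. It had 3.92, 3.50 and 4.00 CPM in control and 4.78, 5.43 and 3.93 CPM in PB. PB 3 lay within the control range and PB 2 was the highest pool. A log2 fold change of 0.31 ± 0.15 (SE; edgeR FDR 0.888) was fitted, and 0.19 without PB 2.

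Bmp15, a ligand made by oocytes, had the lowest fitted change of the ligands, at a level of 0.224, 0.266 and 0.425 CPM in control and 0.202, 0.157 and 0.232 CPM in PB. Control 3 was the highest pool, and the groups overlapped. The log2 fold change was -0.62 ± 0.37 (SE; edgeR FDR 0.888) and -0.32 without control 3. Its interval, from -1.51 to 0.26, included both 0 and a 2-fold fall.

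Inha, the ligand gene with the highest level per length, had 34.2, 31.2 and 31.5 CPM in control and 33.5, 30.0 and 29.8 CPM in PB. The groups overlapped, the fitted log2 fold change of -0.06 ± 0.07 (SE) had a 95% interval that ran from -0.23 to 0.11. Inhbb was at 79.4 to 88.9 CPM in control and 79.1 to 86.0 CPM in PB. The other ligands overlapped as well. Bmp3 was at 3.07 CPM in control 3 and at 0.651 to 1.19 CPM in the 5 other pools. In the same pool, the 6 mesonephros markers summed to 39.6 CPM, against 19.6 to 26.9 CPM elsewhere, and the part of that tissue in the value was not tested. Bmp5 was also highest in control 3, at 7.27 CPM, close to PB 2 at 6.94 CPM, and the 4 other pools had 3.34 to 4.51 CPM.

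Amhr2 (mm10, chromosome 15, 102445007 to 102454640, plus strand) was the receptor with an unadjusted p under 0.05. Its gene sum was 203, 196 and 183 CPM in control and 182, 174 and 169 CPM in PB. The groups did not overlap, though control 3 and PB 1 were almost equal. Its fitted log2 change was -0.15 ± 0.05 (SE), with an unadjusted p from edgeR of 0.0349 and an adjusted p of 0.888, and it ranged from -0.21 to -0.11 over all alternatives. Amh, the gene of its ligand, had 0.780 to 1.17 CPM in control and 0.646 to 1.20 CPM in PB. The summed pregranulosa markers overlapped between the groups, at 1780 to 1991 CPM in control and 1798 to 1977 CPM in PB. The summed Sertoli cell markers were apart by a narrow margin, 62.6 CPM in control 2 against 62.0 CPM in PB 2, which did not hold without Dmrt1. Their part in the value of Amhr2 was not tested.

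Acvr2b, a type II activin receptor, had the highest fitted change of the receptors. It had 56.4, 42.95 and 63.4 CPM in control and 54.3, 64.7 and 58.6 CPM in PB. Control 2 was the lowest pool and the groups overlapped. The log2 fold change was 0.13 ± 0.15 (SE; edgeR FDR 0.900) and turned to -0.02 without control 2. The sums of the other 9 receptors overlapped between the groups, with log2 fold changes from -0.14 (Tgfbr3, a co-receptor) to 0.08 (Acvr2a).

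None of the antagonists had an unadjusted p under 0.05. Bambi had 54.6, 55.7 and 50.2 CPM in control and 52.5, 52.8 and 46.9 CPM in PB. The groups overlapped, and the log2 fold change was -0.08 ± 0.07 (SE), the nearest to 0 of the tested antagonists in the main fit. The Bambi value was -0.02 without PB 3 and -0.13 without control 3. Chrd (chordin, which binds BMPs outside the cell) had 5.47, 5.07 and 6.44 CPM in control and 4.60, 5.43 and 5.92 CPM in PB, and the groups overlapped. Its log2 fold change was -0.09 ± 0.14 (SE) and 0.0077 without control 3.

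Nog (noggin, another extracellular BMP inhibitor) had the lowest fitted change of the antagonists. Its level was 0.885, 1.37 and 1.74 CPM in control and 0.817, 1.49 and 0.783 CPM in PB. PB 2 lay among the control pools and the other 2 PB pools lay below all of them. The log2 fold change was -0.37 ± 0.36 (SE; edgeR FDR 0.888), between -0.74 without PB 2 and -0.14 without control 3. Lefty1, an inhibitor of Nodal signalling, overlapped, at 0.987 to 1.36 CPM in control and 0.756 to 1.26 CPM in PB.

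Of the SMADs, Smad6, an inhibitory SMAD of BMP signalling and itself a target of it, had an unadjusted p under 0.05. It had 32.8, 30.6 and 28.0 CPM in control and 26.6, 28.1 and 24.8 CPM in PB. The groups overlapped by control 3 and PB 2, which were almost equal. Its fitted log2 change was -0.20 ± 0.08 (SE), with an unadjusted p from edgeR of 0.0439 and an adjusted p of 0.888. With known transcripts only the change was -0.68 (unadjusted p from edgeR 0.319), and with sense exonic transcripts only -0.67 (p 0.303). Smad7, the inhibitory SMAD that acts on all branches, overlapped, at 48.6 to 52.1 CPM in control and 42.3 to 54.5 CPM in PB.

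Smad4 had 123, 159 and 158 CPM in control and 161, 170 and 164 CPM in PB. The PB pools lay above all control pools, and control 1 was far below the other 5 pools. A log2 fold change of 0.17 ± 0.10 (SE; edgeR FDR 0.888) was fitted, and 0.05 without control 1. Smad4 shares its assembled locus with Me2, and the sum over this locus gave 0.03.

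Smad5 had 279, 264 and 278 CPM in control and 284, 292 and 283 CPM in PB. All PB pools lay above all control pools, and the gap between control 1 and PB 3 was small against the spread. The log2 fold change was 0.06 ± 0.04 (SE; edgeR FDR 0.888), and 0.03 without control 2 and PB 2. The other 4 SMADs, Smad1, Smad2, Smad3 and Smad9, had fitted changes above 0, from 0.06 to 0.13, with overlapping groups.

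Among the ID genes, Id1 had the lowest unadjusted p of all members. It had 54.2, 50.7 and 57.7 CPM in control and 48.0, 47.5 and 48.5 CPM in PB. The PB pools lay close together and below every control pool. Its fitted log2 change was -0.18 ± 0.06 (SE), with an unadjusted p from edgeR of 0.0229 and an adjusted p of 0.888, and it ran from -0.22 to -0.13 over all alternatives. The endothelial marker sums given above were lower in PB 1 and PB 3 than in every control pool, PB 2 lay within the control range, and 2 of the 6 endothelial markers, Tie1 and Egfl7, had an unadjusted p under 0.05. The part of endothelial cells in the values of Id1 and Smad6 was not tested.

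Id3, the ID gene with the highest level, had 122, 119 and 116 CPM in control and 115, 121 and 119 CPM in PB. The groups overlapped, and the log2 fold change of -0.0052 ± 0.04 (SE) had a 95% interval from -0.11 to 0.10. Id2 had 67.4 to 71.5 CPM in control and 64.4 to 70.8 CPM in PB. Id4 had 12.97 to 15.8 CPM in control and 12.003 to 13.4 CPM in PB, and its log2 fold change was -0.15 ± 0.10 (SE; edgeR FDR 0.888).

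**Figure D3:**
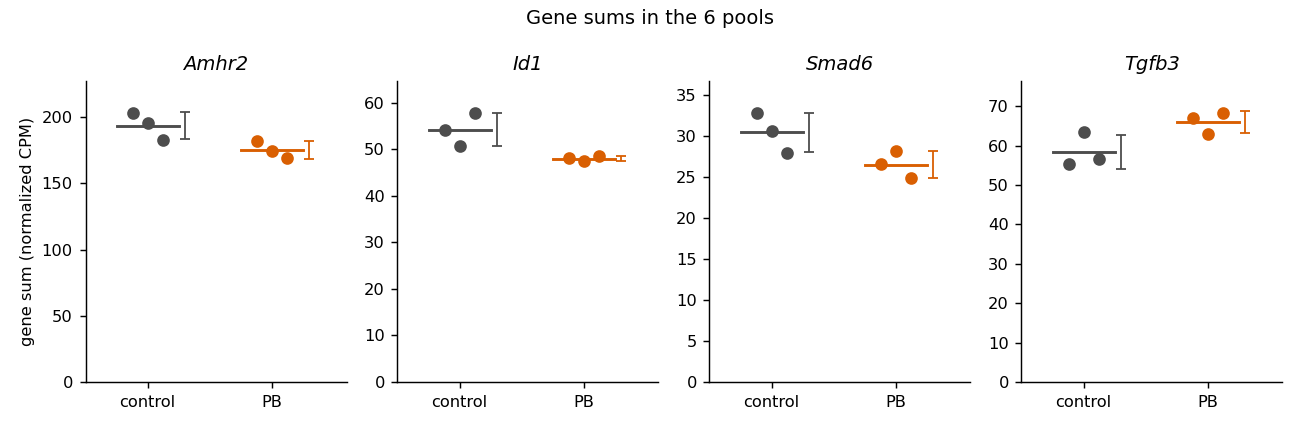
Gene sums (normalized CPM, axis from 0) of the 4 members with an unadjusted p under 0.05. Points are pools, horizontal bars are group means and error bars are the SD of 3 pools. PB lies below control without overlap for Amhr2 (182 against 183 CPM at the nearest pools) and Id1, and the groups overlap for Smad6 and Tgfb3.

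The gene sums were steadier than their parts. Over the 6 pools, the median coefficient of variation was 7.98% for the 41 tested gene sums, 25.8% for the 84 tested transcripts of the members and 10.7% for all gene sums. The 31 members with a mean of 10 CPM or more varied by 2.29% to 13.8%, and the 10 members below this level by 11.5% to 70.8%. The assembler used by the authors, StringTie, shares out the reads between the transcripts of each locus, and 14 members had a transcript whose share of the gene differed by 20 percentage points or more between pools.

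Bambi is an example among the genes of higher level. Its assembled transcript MSTRG.8361.1 had 3872, 0 and 0 counts in control and 0, 0 and 4166 counts in PB. The reference transcript NM_026505.2 had 1494, 6498 and 4727 counts in control and 5206, 5399 and 1290 counts in PB. The counts went to the assembled form in control 1 and PB 3 and to the reference form in the other 4 pools, so the division did not follow the groups.

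Smad6 had an assembled transcript, MSTRG.18837.2, with 2193 counts in PB 1 and 0 counts in each of the 5 other pools. The reference forms XM_006510822.2 and NM_008542.3 had 248 and 194 counts in PB 1, against 1159 to 2215 and 1150 to 1475 counts elsewhere. Leaving out assembled transcripts therefore moved the log2 fold change of Smad6 to -0.68 (edgeR FDR 0.917, range over all alternatives 0.342 to 1.00).

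For Smad4, the reference transcript NM_008540.2 had 11937, 13413 and 11151 counts in control and 11637, 12732 and 13950 counts in PB. XM_011246855.2 had 137, 5129 and 11 counts in control and 4293, 4627 and 14 counts in PB, and XM_006525701.3 had 3616 counts in control 3, 4956 counts in PB 3 and 0 counts elsewhere. Every pool but control 1 had 3616 counts or more on 1 of these predicted models, and the reference transcript showed no such gap.

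**Figure D4:**
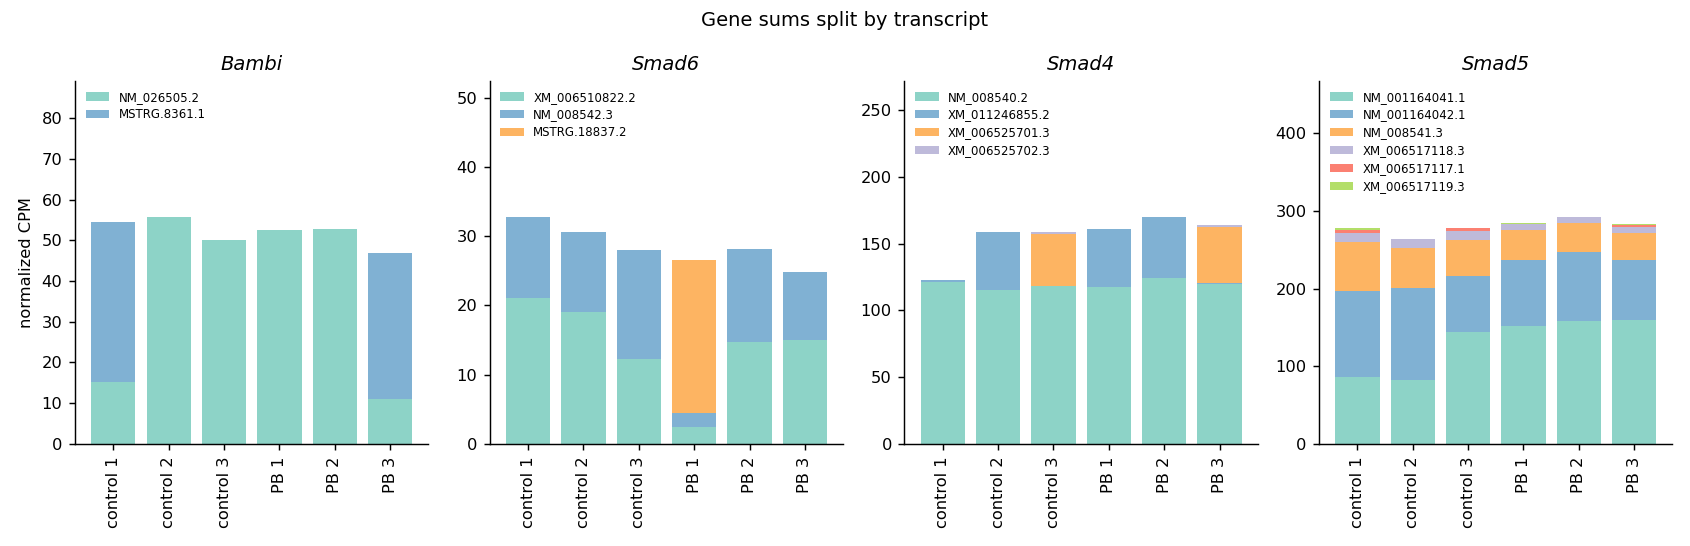
Gene sums (normalized CPM) of Bambi, Smad6, Smad4 and Smad5 in the 6 pools, split by transcript (stacked bars from 0). The bar heights of Bambi stay between 46.9 and 55.7 CPM while the transcript that takes the counts changes with the pool, and MSTRG.18837.2 of Smad6 is seen in PB 1 alone.

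At the level of transcripts, edgeR tested 84 of the 129 member transcripts. It called 0 of them (0.0332% of all transcripts called) and gave 7 an unadjusted p under 0.05 (3.56% of all transcripts). DESeq2, the tool used in the study, gave 11 an unadjusted p under 0.05 (7.17% of all) and called 3 of the 95 with an adjusted p (1.85% of all). The edgeR count of 0 does not show that the transcripts were unchanged, since this test recovered none of the changed transcripts in simulated data. The DESeq2 calls have no such check at this level, and on simulated gene sums DESeq2 made more false calls than edgeR. The 3 were 2 transcripts of Amhr2 and 1 of Chrd, and the choice of tool decided these calls. Groups did not overlap for 12 of the 84 transcripts tested by edgeR, against 9.95% of all transcripts.

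Amhr2 had 6 transcripts. The reference form NM_144547.2, with 11 exons, held 91.5% of the counts. It had 19051, 21951 and 16574 counts in control and 15813, 14679 and 17552 counts in PB, and its log2 fold change was -0.29 ± 0.06 (SE; edgeR FDR 0.655). Its share of the gene was 95.5%, 96.3% and 96.4% in control and 87.5%, 82.4% and 89.3% in PB. The share was lower in every PB pool than in every control pool.

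XM_006520294.3, a predicted RefSeq model, starts 152 bases upstream of NM_144547.2 and lacks its exons 9 and 10. These exons, at 102452745 to 102452892 and 102453032 to 102453168, hold 285 bases or 95 codons, so that the reading frame is kept. They lie in the part of the gene that encodes the kinase domain. The model had 440, 431 and 348 counts in control and 1275, 1226 and 1172 counts in PB.

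All PB pools lay far above all control pools, and the pools of each group were close. The log2 fold change was 1.56 ± 0.19 (SE). The edgeR FDR was 0.192 and the DESeq2 FDR 1.63e-13, with a range over all alternatives from 1.63e-13 to 1.00. Its share of the Amhr2 counts was 2.04% ± 0.158 (SD, n = 3) in control and 6.63% ± 0.586 (SD, n = 3) in PB. An exact two-sided permutation test of the share gave p = 0.1, the smallest that 3 against 3 pools allow. Groups that do not overlap always give this value, so the test adds nothing to the lack of overlap.

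XM_006520293.2, another predicted model, starts 360 bases upstream with a first exon of its own, keeps part of exon 1 of the reference and lacks none of its later exons. It had 0 counts in each control pool and 131, 351 and 126 counts in PB. Against a floor of 3 counts in each control pool, its assigned level was at least 66.4-fold higher in PB. Without PB 2, the highest pool, the assigned level was at least 41.1-fold higher. This floor covers counting error alone. It does not cover the assembler's division of reads, under which transcripts of Smad6 and Smad4 had 0 counts in some pools and many in others. The ratio of the RNA itself is therefore not bounded. The edgeR FDR was 0.381 and the DESeq2 FDR 6.4e-09, with a range over all alternatives from 6.4e-09 to 1.00. It made up 0.725%, 1.97% and 0.641% of Amhr2 in PB 1, 2 and 3.

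The 3 assembled forms of Amhr2 were minor too. MSTRG.6753.3, which retains intron 10 of the reference, had 75, 116 and 108 counts in control and 238, 626 and 223 counts in PB (edgeR log2 fold change 1.85 ± 0.55, SE; FDR 1.00), and the log2 fold change was 1.16 without PB 2. MSTRG.6753.6, which lacks exon 1, had 121 to 371 counts in control and 448 to 523 counts in PB. MSTRG.6753.4, which retains intron 8, had 12 to 48 counts in control and 51 to 487 counts in PB, with PB 2 the highest pool. Scaled for depth its groups overlapped, since control 3 had 0.437 CPM and PB 3 had 0.425 CPM. As a share of the gene, each of the 5 minor forms was higher in all PB pools than in all control pools. The shares of a gene add up to a fixed total, so that these 6 values are not independent.

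In the Amhr2 sequence printed above, the word in capitals starts 80 bases before the start of XM_006520294.3 and 128 bases after that of XM_006520293.2. It runs past the end of the first exon of XM_006520293.2 and overlaps no other exon of the 6 transcripts.

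**Figure D5:**
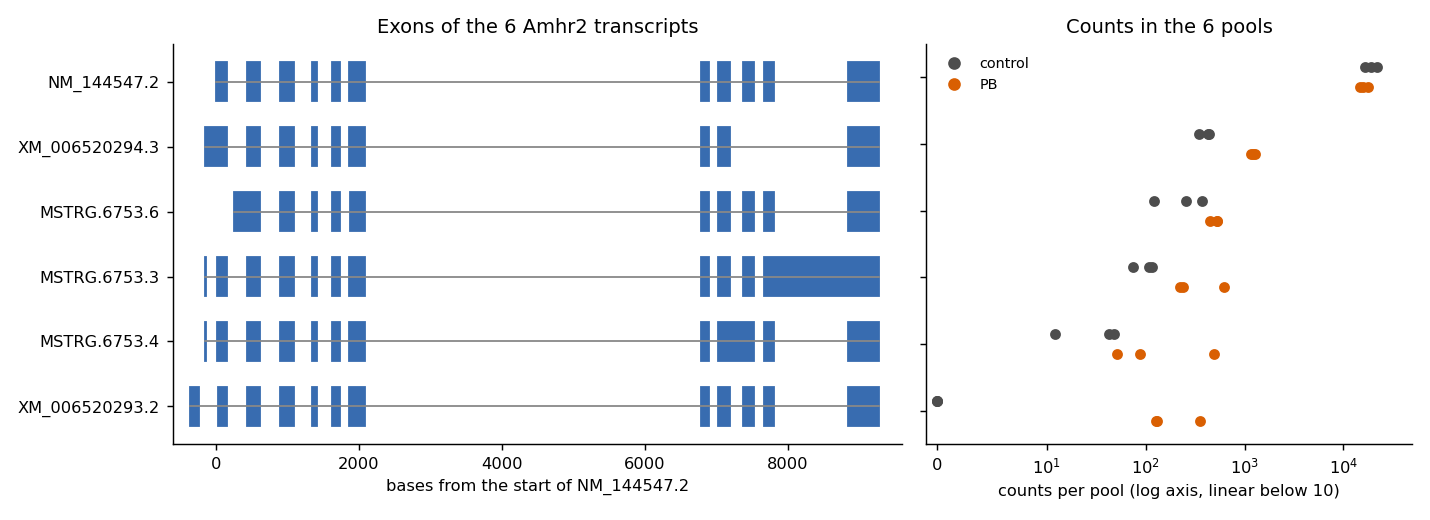
Left, exons (boxes) of the 6 Amhr2 transcripts by distance in bases from the start of NM_144547.2. Right, counts of each transcript in the 3 control and 3 PB pools (log axis, linear below 10). The counts are not scaled for depth. In CPM, MSTRG.6753.4 overlaps between the groups, 4 minor forms lie higher in PB, and NM_144547.2 lies lower in PB without overlap.

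The Chrd transcript called by DESeq2, XM_011245816.2, had 19, 3 and 33 counts in control and 0 counts in each PB pool. Control 2 was at the floor of 3 counts itself. Against this floor in each PB pool, the assigned level was at least 6.64-fold higher in control, and at least 3.84-fold higher without control 3. As for Amhr2, the floor does not cover the division of reads, so the ratio of the RNA itself is not bounded. The DESeq2 FDR was 0.0382, and the transcript did not pass the filter of the main edgeR fit. Without that filter the edgeR FDR was 0.803, and over the 6 alternatives that gave a value it ran from 0.0382 to 1.00. The main transcripts of Chrd, NM_009893.2 and NM_001278041.1, held 66.5% and 30.3% of its counts.

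Smad5 held a further transcript with a DESeq2 FDR of at most 0.05 (1.98% of all transcripts), below the 2-fold threshold. XM_006517118.3 had 1155, 1463 and 1026 counts in control and 786, 774 and 920 counts in PB, and held 3.49% of the Smad5 counts. The fitted log2 fold change of -0.58 ± 0.14 (SE) had an edgeR FDR of 0.786 and a DESeq2 FDR of 2.05e-05 (range over all alternatives 2.05e-05 to 1.00). The most abundant form, NM_001164041.1, had 8481, 9598 and 13557 counts in control and 15057, 16107 and 18620 counts in PB, with an edgeR log2 fold change of 0.59 ± 0.24 (SE; FDR 1.00). Control 3 stood apart from the other control pools in this division. The log2 fold change of NM_001164041.1 was 0.88 without control 3 and 0.45 without control 2, and its FDR was 0.121 or more over all alternatives.

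Bmp4 counts were divided among 5 transcripts with counts. NM_007554.3 had 13, 62 and 56 counts in control and 170, 554 and 101 counts in PB, whereas XM_006518467.3 had 349, 298 and 282 counts in control and 94, 1 and 307 counts in PB. The first form lay higher in all PB pools, with an edgeR log2 fold change of 2.67 ± 0.96 (SE; FDR 1.00). PB 2 was the highest pool, and the value was 1.62 without it.

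Beyond the members, 86 other genes of the superfamily were taken from a list of ligands, latency proteins, receptors, antagonists, SMAD partners and targets. Of these, 78 were tested and 0 were called by edgeR or DESeq2, with a median log2 fold change of -0.02. At an unadjusted p under 0.05, edgeR gave 7 (4.46% of all genes) and DESeq2 9 (3.65% of all genes). The edgeR count moved with single pools. It was 2 without PB 1, control 1 or control 3, 3 without PB 3, 9 without control 2 and 12 without PB 2. It was 14 without control 2 and PB 2 together. The 4.46% of all genes belongs to the main fit, and the share is not given here for the fits with pools left out. The moves in this count therefore cannot be read as a result about the pathway. Gdf3, Emilin1, Chrdl2, Foxh1 and Msx2 were lower in PB, and Zfyve16 and Runx1 were higher.

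Emilin1, a matrix protein that restrains the processing of TGF-beta, had 255, 247 and 267 CPM in control and 229, 235 and 226 CPM in PB. The groups did not overlap, and the log2 fold change was -0.16 ± 0.04 (SE; edgeR FDR 0.888). Zfyve16, an endosomal protein that binds SMADs, had 40.01, 38.7 and 41.01 CPM in control and 44.5, 43.2 and 46.2 CPM in PB, also without overlap. Its log2 fold change was 0.16 ± 0.05 (SE; edgeR FDR 0.888).

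Runx1, a transcription factor that works with SMADs and marks pregranulosa cells, had 68.0, 70.1 and 67.7 CPM in control and 79.0, 78.3 and 71.1 CPM in PB. No PB pool fell into the control range, and the log2 fold change was 0.15 ± 0.06 (SE; edgeR FDR 0.888). Foxh1, a partner of SMAD2 and SMAD3, had 6.14, 4.77 and 7.48 CPM in control and 4.06, 4.73 and 4.16 CPM in PB. Its groups did not overlap, by a small margin between control 2 and PB 2, and the log2 fold change was -0.51 ± 0.18 (SE; edgeR FDR 0.888).

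Msx2, a target of BMP signalling, had 9.62 to 12.5 CPM in control and 8.42 to 9.41 CPM in PB without overlap, and a log2 fold change of -0.30 ± 0.12 (SE). The ligand Gdf3, which is expressed in pluripotent and germ cells, had 1.41 to 2.00 CPM in control and 0.837 to 1.47 CPM in PB, with a log2 fold change of -0.72 ± 0.27 (SE). Chrdl2, a chordin-like antagonist, had 0.692 to 1.13 CPM in control and 0.499 to 0.636 CPM in PB, with a log2 fold change of -0.70 ± 0.25 (SE). The edgeR FDR of all 3 was 0.888. Fst (follistatin), which binds activins, had 156 to 164 CPM in control and 143 to 168 CPM in PB, and its 95% interval ran from -0.18 to 0.14.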

How the data were processed

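RNA was measured in 6 pools by stranded RNA-seq (3 control, 3 PB). The authors demultiplexed with bcl2fastq 2.17.1.14, aligned to mm10 with HISAT2 2.1.0 and assembled transcripts with StringTie 1.3.5. They deposited raw counts for each transcript, computed by prepDE from transcript coverage. The deposited annotation gave names, exons and class codes, which are labels and of no unit. The deposited table of the authors' DESeq2 1.30.0 comparison holds fold changes, errors, p-values and normalized values per pool. Only its gene names were used here. The depth is in the report, and no sequencing batch is named.

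Counts were summed by gene name. The 1493 transcripts without a name, with 3.05% to 4.49% of a pool's counts, were left out of the sums. Sums and transcripts were compared in R 4.3.3 with edgeR 4.0.16 (TMM, filterByExpr at minimums of 10 for the count and 15 for the total, quasi-likelihood F-test on group alone). The standard error is the size of the log2 fold change divided by the square root of F, and the 95% interval uses the t quantile of the fit. CPM values are TMM-normalized. TPM values divide counts by exon length. The p-values of edgeR and DESeq2 set the difference between the groups against the spread between pools. The library kit keeps the strand, the assembler's strand setting is not given in the sources used here, and 1 antisense form of Bmpr1a is in its sum. All pairs of pools differed by more than sampling noise.

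The scripts were tested on simulated data with known changes. In gene sums, both tools recovered most of the 4-fold changes and a smaller share of the 2-fold changes, and DESeq2 recovered more than edgeR with more false calls. In transcripts, edgeR recovered none of the 4-fold changes, and DESeq2 was not run on simulated transcripts. The biological coefficient of variation was 20.9% for gene sums and 98.4% for transcripts, so a transcript that missed the threshold is not shown to be unchanged.

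Alternatives were DESeq2 1.42.0, DESeq2's size factors, no filter, a stricter filter (10 counts in every pool of 1 group), a looser FDR of 0.1, no minimum fold, the replicate number as a block, each pool left out, known transcripts only, sense exonic transcripts only and sums by assembled locus. Leaving out control 2 and PB 2 together was added after the data were seen. Members were named with their 6 values when they had an unadjusted p under 0.05, no overlap, a called transcript, the highest level of their role or the largest rise or fall of their role. Other pathway genes were named at an unadjusted p under 0.05. Fst and Amh were added after their values were seen. The members, lists and tests were chosen with earlier results of these data known.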

Additional observations from a re-analysis of the deposited data

How the results depend on the processing

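No member gene was called under any of the alternatives, and in the main fit 0.0154% of all genes were called. The members at an unadjusted p under 0.05 by edgeR numbered 0 to 6 when 1 pool was left out and 4 in the fit with a replicate block, and the other pathway genes 2 to 12 and 3. The share of all genes at this p is not given here for these fits, so these counts cannot be set against it. The fits with a replicate block called 0 member genes, 0 member transcripts and 0 other pathway genes. Same-numbered pools correlated at 0.093, 0.147 and -0.018 in their deviations from the group means, so the numbers were not taken to pair the pools. DESeq2 called 3 member transcripts in place of 0, and the cause was not tested. Of 293 values under an alternative, 286 kept their direction and their side of the threshold and 5 turned direction. Acvr2b went to -0.085 without control 2 and PB 2 and ran from -0.021 to 0.25 when 1 pool was left out. Chrd ran from -0.17 to 0.0077 and Id3 from -0.027 to 0.0114 when 1 pool was left out. The cause of these turns was not tested. Both Amhr2 models passed the threshold with DESeq2 alone. The intervals of Bmp3, Bmp5, Bmp15, Nodal and Nog reached past a 2-fold change. Of the members, Grem1 and Lefty2 were too low in counts to be tested.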
